A study of Danio rerio with 54 samples.

Results

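The genes described here are 50 genes of DNA replication and the cell cycle in zebrafish larvae, among 30097 genes in an expression table of the whole series. They were taken by symbol from a given list, with 1 gene ID for each symbol (the ID with the highest mean level). The list holds 26 S phase genes, which build and run the replication fork or make its nucleotides, 4 genes of the G1/S step (ccnd1, ccne1, ccne2 and cdk2), and 20 genes of mitosis. Whole larvae of the AB strain gave 54 RNA samples in 18 groups of 3. In the lc groups larvae of 96 hours post fertilization (hpf) were kept at 10 °C for 1, 2, 6, 12 or 24 h. In the re groups larvae spent 12 h at 10 °C and then 1, 2, 6, 12 or 24 h at 28 °C. By the study's methods, the medium took about 1 h to warm from 10 to 28 °C after the return. The er_ab and er_nor groups are survivors of 24 h at 10 °C followed by 24 h at 28 °C, sorted into abnormal larvae that had lost their equilibrium and normal larvae that swam normally. Untreated ctrl larvae stayed at 28 °C and were collected at 96, 97, 98, 102, 108 and 132 hpf. The cold exposure of every treated group started at 96 hpf, so re_24h and ctrl_132hpf larvae had the same age, but re_24h larvae had spent 24 of the 36 h after 96 hpf at 28 °C. Dead larvae were removed before collection, so the er groups hold survivors alone. The er larvae were 144 hpf old, and no untreated group of that age was analysed here. The study's methods call the samples of a group biological replicates, and the sources do not say whether these came from separate clutches or dishes, nor how many larvae each held, so the p-values below measure the spread between these samples.

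A replication origin is licensed in G1, when orc1, cdc6 and cdt1 load the ring of Mcm2 to Mcm7 onto DNA, and cyclin E with Cdk2 then starts S phase. Cdc45 and the GINS complex turn the Mcm ring into an active helicase, and the clamp Pcna, its loader Rfc, the single-strand binding protein Rpa and the polymerases copy the DNA, while ribonucleotide reductase and thymidylate synthase supply nucleotides. Cyclin A and cyclin B with Cdk1 drive entry into mitosis, the checkpoint kinases watch over the spindle, and the anaphase-promoting complex ends mitosis by destroying the cyclins. In larvae of this age the brain, the retina and the gut still hold dividing cells.

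Levels are given in TPM, transcript abundances that are scaled for transcript length and can be compared between genes. Fold changes are differences of log2(TPM + 1) from limma fitted to all 54 samples, with the standard error of the fit and p-values adjusted by Benjamini-Hochberg over the 25387 genes that reached 1 TPM in all 3 samples of any group. Calling a gene higher or lower took a change of 1.5-fold or more with an adjusted p no larger than 0.05. All 50 members passed the filter on low values. Their mean over all samples ran from 1.85 TPM (ccne1, a cyclin of the G1/S step) to 189 TPM (pcna). Each column sums to between 998493 and 999530 TPM, read counts are not given in the table, and the precision of a value can therefore be judged from the spread of the 3 samples only. Replicates of a group correlated at r = 0.972 to 0.981 across genes. Of the 50 members 10 have more than 1 gene ID (orc1, cdc6, rfc3, rrm2, ccne1, cdk1, plk1, ube2c, smc2 and ncapg), and reads of these could have been split between copies. Defining markers of neural progenitors, neurons, muscle, lens, pancreas, liver, epidermis, blood and immune cells were all detected, apart from 1 of 6 blood markers with no match in the table.

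Over the 18 groups the S phase genes and the mitosis genes reached their lowest levels in different larvae. The lowest group mean was that of the untreated ctrl_132hpf larvae for 23 of 26 S phase genes, and that of the abnormal survivors for 17 of 20 mitosis genes. Survivors of both er groups were the oldest larvae, at 144 hpf, with no untreated group of that age. The part of age in this was not tested. The highest group mean was that of re_12h for 14 of the 26 S phase genes. Of all 50 members, 3 passed the threshold in none of the 21 comparisons: ccnd1 (cyclin D1), ccnb2 (a cyclin B) and kif11 (the kinesin that pushes spindle poles apart). Fold changes of ccnd1 ran from -0.26 to 0.38, those of ccnb2 from -0.49 to 0.31 and those of kif11 from -0.53 to 0.24.

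**Figure D1:**
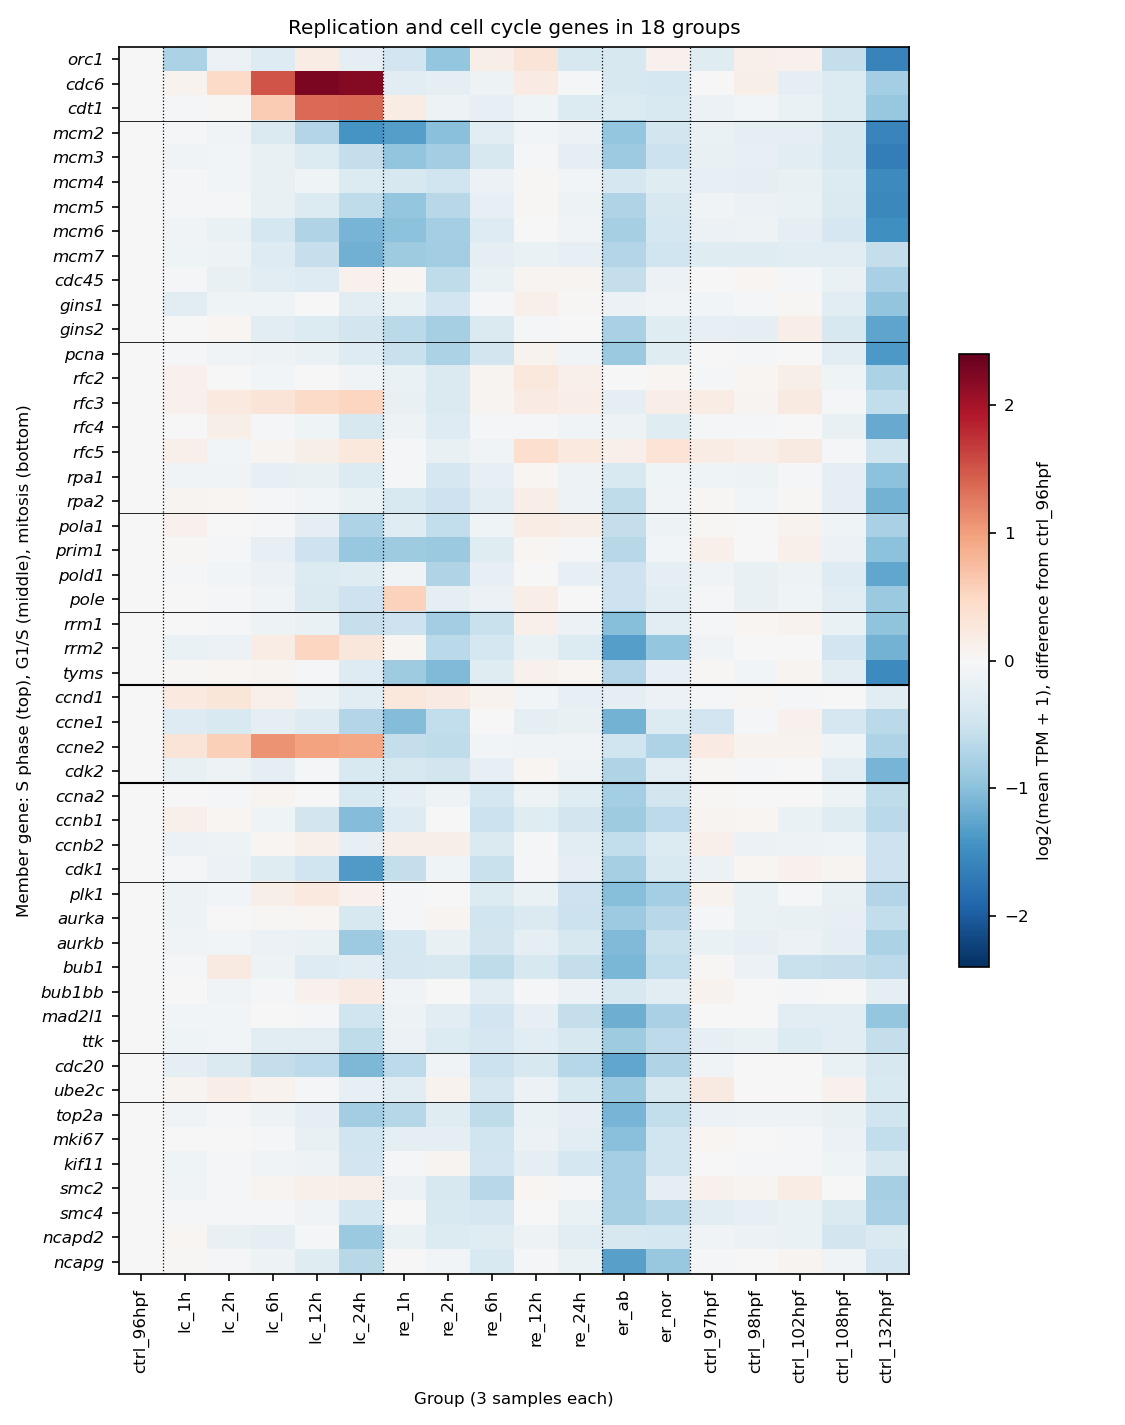
Difference of log2(mean TPM + 1) from ctrl_96hpf (colour) for each of the 50 members (down the page, S phase genes above G1/S and mitosis genes) in the 18 groups (across). The ctrl_132hpf column is the lowest for 23 of 26 S phase genes, the er_ab column for 17 of 20 mitosis genes, and cdc6, cdt1 and ccne2 stand out as high after 6 to 24 h at 10 °C.

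During cold exposure the first members to be called were the licensing factors cdc6 and cdt1 and the cyclin ccne2, and all 3 rose. In the first 2 h no member was called at lc_1h or lc_2h against ctrl_96hpf in limma, where 0.228% and 0.654% of all genes were called higher and 0.0551% and 0.0945% lower. At an unadjusted p under 0.05, 3 and 7 of 50 members differed at these times, against 10.3% and 10.4% of all genes. At lc_6h 3 members were called higher and 0 lower, with 2.65% and 2.19% of all genes, and at lc_12h 3 higher and 3 lower, with 5.56% and 9.54%. All lc groups were set against the same 3 ctrl_96hpf samples.

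Cdc6 loads the helicase at origins, and its mRNA stood at 16.1, 17.7 and 16.0 TPM in the lc_6h samples, at 24.8, 30.9 and 30.5 TPM in lc_12h and at 27.6, 28.6 and 26.4 TPM in lc_24h, against 5.44, 5.11 and 5.09 TPM in ctrl_96hpf. Every sample from lc_6h on lay above every ctrl_96hpf sample, with log2 fold changes of 1.501 ± 0.15 (limma adjusted p = 2.6e-10), 2.25 ± 0.15 (8.5e-16) and 2.20 ± 0.15 (6.3e-16). Its partner cdt1 stood at 10.8, 11.7 and 12.0 TPM in lc_12h and at 11.1, 12.1 and 11.9 TPM in lc_24h, against 4.43, 3.61 and 3.62 TPM in ctrl_96hpf. The lc_12h and lc_24h samples did not overlap with the control, and cdt1 rose by 1.36 ± 0.08 at lc_12h (adjusted p = 3.5e-17) and by 1.38 ± 0.08 at lc_24h (6.8e-18). At lc_6h the rise of cdt1 was 0.61 ± 0.08 (adjusted p = 2.4e-07), and it fell short of the 1.5-fold limit, at 0.56 to 0.57, when any of 3 single samples was left out.

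Cyclin E2 (ccne2), a partner of Cdk2, had 19.7, 20.4 and 21.4 TPM in lc_6h, 16.9, 21.2 and 18.8 TPM in lc_12h and 18.6, 20.03 and 16.9 TPM in lc_24h, against 9.38, 8.56 and 9.77 TPM in ctrl_96hpf. It was already near its full level at 6 h, with fold changes of 1.07 ± 0.12, 0.96 ± 0.12 and 0.93 ± 0.12 at the 3 times (limma adjusted p = 9.1e-09, 3.1e-08 and 2.5e-08). Against untreated larvae of the same age no member was called in limma at lc_1h (against ctrl_97hpf) or lc_2h (against ctrl_98hpf), where 0.374% and 0.906% of all genes were higher and 0.197% and 0.232% lower, and at an unadjusted p under 0.05 there were 4 and 10 of 50 members and 12.9% and 17.3% of all genes. At lc_6h against ctrl_102hpf cdc6 (1.73), ccne2 (1.00) and cdt1 (0.77) were again the 3 members higher, with 0 lower, against 3.32% and 3.68% of all genes. Cdc6 rose by 2.57 ± 0.15, cdt1 by 1.68 ± 0.08 and ccne2 by 1.06 ± 0.12 at lc_12h against ctrl_108hpf, where 5.77% of all genes were called higher and 14.1% lower. The small subunit of ribonucleotide reductase, rrm2, passed in that comparison too, at 99.1, 103 and 109.6 TPM in lc_12h and 51.5, 54.5 and 52.0 TPM in ctrl_108hpf (0.97 ± 0.12, adjusted p = 1.5e-08). Against ctrl_96hpf, whose samples had 81.7, 72.8 and 63.6 TPM, its fold change of 0.51 ± 0.12 stayed under the limit.

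**Figure D2:**
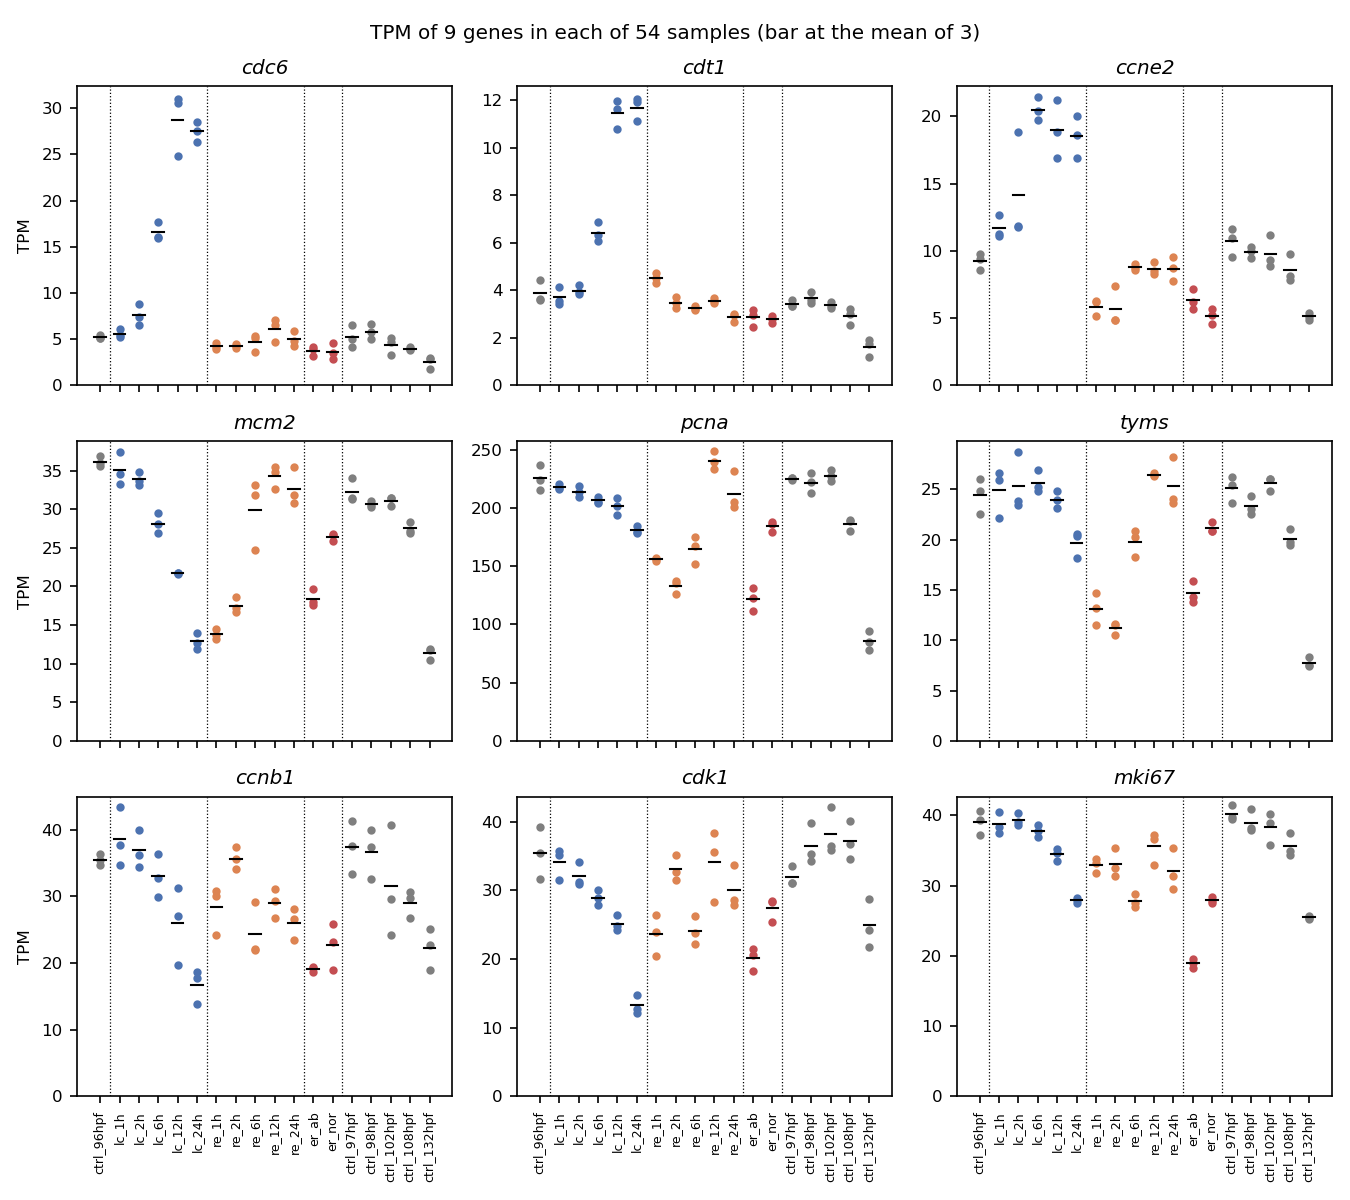
TPM (y axis, linear, starting at 0) of 9 genes in each of the 54 samples, with the 18 groups along the x axis and a bar at the mean of 3. The cdc6 samples of lc_12h lie at 24.8 to 30.9 TPM and those of re_1h at 3.995 to 4.54 TPM, while pcna has its lowest samples in ctrl_132hpf (78.1 to 94.1 TPM).

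After 24 h at 10 °C most members lay below their starting level, helicase and mitosis genes among them, while cdc6, cdt1 and ccne2 stayed high. In lc_24h 15 of 50 members (30%) were called lower and 3 (6.00%) higher than in ctrl_96hpf, against 24.3% and 9.30% of all genes, so the shares of the members lie near those of all genes. The median fold change was -0.32 for the S phase genes (6 of 26 lower, 2 higher), -0.47 for the mitosis genes (8 of 20 lower, 0 higher) and -0.23 for all genes tested. Above 0 lay 6 of 26 S phase and 3 of 20 mitosis genes. The helicase factor cdc45, the clamp loader rfc3 and the checkpoint gene bub1bb, not called, had their highest mean of the 18 groups in lc_24h. After the libraries were rescaled by the median of ratios, 9 members were lower and 4 higher, against 14% and 15.6% of all genes. The medians were then -0.05 for the S phase genes, -0.19 for the mitosis genes and -0.003 for all genes. No untreated larvae of 120 hpf were analysed here, so the part of age in these changes was not tested. In whole larvae, fewer dividing cells and less of an mRNA in each dividing cell cannot be told apart.

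Among the helicase genes mcm2 had 11.9, 14.0 and 12.7 TPM in lc_24h, against 36.8, 36.0 and 35.5 TPM in ctrl_96hpf, a change of -1.42 ± 0.07 (limma adjusted p = 9.1e-21). Its samples did not overlap, and the lc_12h samples lay between them at 21.7, 21.6 and 21.8 TPM. The most abundant helicase subunit, mcm7, had 69.5, 68.4 and 68.2 TPM in lc_24h and 154, 156 and 154 TPM in ctrl_96hpf (-1.16 ± 0.06, adjusted p = 1.2e-18). With mcm6 (-1.12 ± 0.07) and mcm5 (-0.60 ± 0.04), 4 of the 9 helicase genes were called lower, against 24.3% of all genes. Mcm5 dropped under the limit, to -0.33, after rescaling and to -0.58 without lc_24h replicate 1. At lc_12h mcm2 (-0.71 ± 0.07) and mcm6 (-0.73 ± 0.07) were called lower against ctrl_96hpf, and neither was called against ctrl_108hpf or after rescaling. The count of 3 lower members at lc_12h, with cdc20 (-0.62 ± 0.15) as the third, was 5 without lc_12h replicate 1 and 2 without ctrl_96hpf replicate 2.

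Of the polymerase genes the primase subunit prim1 (-0.91 ± 0.11, adjusted p = 6.9e-09) and the catalytic subunit of polymerase alpha pola1 (-0.74 ± 0.06, adjusted p = 1.3e-13) fell in lc_24h, pola1 missing the limit after rescaling (-0.49), while none of the 7 clamp, clamp loader and Rpa genes was called (median -0.15). The clamp pcna itself had 179.6, 184 and 179 TPM in lc_24h and 237, 224 and 215 TPM in ctrl_96hpf, without overlap but with a fold change of -0.32 ± 0.05 that missed the limit. For rrm2 the difference was 0.28 ± 0.12 and for ccnd1 -0.26 ± 0.05, neither of them called. Cyclin E1 (ccne1), a close relative of ccne2, was called lower at -0.70 ± 0.27 (adjusted p = 2.3e-02), a call that was lost with its gene IDs summed (-0.33).

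Of the mitosis genes cdk1, the kinase that starts mitosis, changed the most at lc_24h: 12.7, 14.8 and 12.2 TPM, against 39.2, 31.7 and 35.4 TPM in ctrl_96hpf (-1.36 ± 0.10, limma adjusted p = 8.6e-15). Its cyclin ccnb1 had 17.7, 13.8 and 18.7 TPM in lc_24h, against 35.5, 36.3 and 34.7 TPM in ctrl_96hpf (-1.05 ± 0.15, adjusted p = 5.3e-08). Both genes were lower in each of the 3 cold samples than in each control sample. Topoisomerase II (top2a), which untangles sister chromosomes, fell by 0.84 ± 0.06, and aurkb, the kinase of the chromosomal passenger complex, by 0.88 ± 0.07. The others called lower were cdc20 (an activator of the anaphase-promoting complex), the condensin subunits ncapd2 and ncapg, and the checkpoint kinase ttk, of which ncapg, ttk and also top2a (-0.56) missed the limit after rescaling. The proliferation marker mki67 had 28.2, 27.9 and 27.5 TPM in lc_24h and 39.4, 40.6 and 37.3 TPM in ctrl_96hpf, a difference of -0.47 ± 0.05 that was not called.

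Other genes of the same processes, from lists of related symbols, were also called in both directions in lc_24h against ctrl_96hpf. Of all genes tested, 9.30% were higher and 24.3% lower in this comparison. Of 46 other replication genes tested, 3 were called higher and 13 lower. The histone mRNA binding protein slbp averaged 61.5 ± 2.59 TPM in lc_24h and 30.3 ± 2.59 TPM in ctrl_96hpf (SD, n = 3 each, 1.00 ± 0.07), whereas uhrf1, which guides maintenance of DNA methylation, changed by -1.27 ± 0.07. Of 19 other G1/S genes 5 were higher and 3 lower: e2f7, an E2F family repressor, averaged 19.5 ± 1.95 TPM in lc_24h and 3.05 ± 0.256 TPM in ctrl_96hpf (2.33 ± 0.11), and cdk4, the partner of D-type cyclins, averaged 8.79 ± 0.316 TPM in lc_24h and 27.5 ± 1.77 TPM in ctrl_96hpf (-1.54 ± 0.06).

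With 9.30% of all genes higher and 24.3% lower in lc_24h, 6 of 17 genes that restrain the cycle were higher and 3 lower. Among them btg2 averaged 161 ± 4.49 TPM in lc_24h and 19.5 ± 2.45 TPM in ctrl_96hpf (2.99 ± 0.10), btg1 averaged 245 ± 3.24 TPM in lc_24h and 86.4 ± 3.8 TPM in ctrl_96hpf (1.495 ± 0.05), and cdkn1a, which encodes the inhibitor p21, averaged 58.0 ± 3.75 TPM in lc_24h and 10.5 ± 1.83 TPM in ctrl_96hpf (2.37 ± 0.13). The anti-proliferative gene btg2 was called higher already at lc_1h (1.19 ± 0.10, limma adjusted p = 8.1e-11), when no member was. Of 50 other mitosis genes 17 were lower and 2 higher, and the 2 higher ones, plk4 (0.67 ± 0.08) and stil (1.03 ± 0.12), act in centriole duplication.

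On return to 28 °C the members that had risen in the cold fell within 1 h, and further S phase genes fell with them, while no mitosis gene was called. In re_1h 9 members were called lower and 1 higher than in lc_12h, against 4.55% and 12.3% of all genes. In re_2h 9 were lower and 0 higher, against 6.55% and 14.1% of all genes, with 36 of 50 members and 54.7% of all genes at an unadjusted p under 0.05. The 9 lower members of re_2h are 8 S phase genes (30.8% of 26) and ccne2. No mitosis gene was called at either time. At an unadjusted limma p under 0.05 there were 7 of 20 at re_1h and 9 of 20 at re_2h, against 49.9% and 54.7% of all genes. All re groups were set against the same 3 lc_12h samples, in which cdc6, cdt1 and ccne2 were high.

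Cdc6 stood at 3.995, 4.54 and 4.15 TPM in re_1h and at 4.26, 4.51 and 4.09 TPM in re_2h, against 24.8, 30.9 and 30.5 TPM in lc_12h (-2.503 ± 0.15 and -2.49 ± 0.15, limma adjusted p = 3.7e-17 and 3.5e-17). In re_1h, collected at about the end of the warming of the medium, all 3 samples were thus below those of ctrl_96hpf (5.09 to 5.44 TPM). Cdt1 changed by -1.17 ± 0.08 at re_1h and -1.48 ± 0.08 at re_2h, and ccne2 by -1.54 ± 0.12 and -1.59 ± 0.12. All 3 genes of nucleotide supply were called lower at re_2h, against 6.55% of all genes, and tyms already at re_1h (-0.83). Ribonucleotide reductase subunit rrm2 had 45.2, 53.8 and 39.0 TPM in re_2h, against 99.1, 103 and 109.6 TPM in lc_12h (-1.17 ± 0.12, adjusted p = 1.4e-10), and its partner rrm1 had 24.6, 22.9 and 25.7 TPM in re_2h, against 40.3, 39.3 and 38.6 TPM in lc_12h (-0.67 ± 0.05, 1.2e-14). Thymidylate synthase tyms had 11.7, 10.5 and 11.5 TPM in re_2h, against 23.9, 24.9 and 23.1 TPM in lc_12h (-1.03 ± 0.08, 1.5e-14). All 3 nucleotide genes lay below lc_12h without overlap.

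The clamp gene pcna had 138, 136 and 126 TPM in re_2h, against 202, 194 and 209 TPM in lc_12h (-0.60 ± 0.05, limma adjusted p = 3.5e-12). This value lies at the limit, and was -0.57 without lc_12h replicate 3 and -0.56 without re_2h replicate 3. The clamp loader rfc3 fell too (-0.81 ± 0.09), and orc1 (-1.11 ± 0.45, adjusted p = 3.9e-02) lost its call in 4 of the fits that left out 1 sample. The helicase gene mcm5 had its lowest rewarmed level 1 h earlier, with 19.6, 18.8 and 18.6 TPM in re_1h, against 29.5, 28.7 and 29.6 TPM in lc_12h (-0.60 ± 0.04, 1.8e-14), and its fold change at re_2h was -0.34. In re_1h mcm2 (-0.62 ± 0.07) and mcm3 (-0.61 ± 0.06) were also called lower, and mcm3 lost its call without lc_12h replicate 1 (-0.57).

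At re_1h 4 of 26 S phase genes lay above lc_12h, and 1 of them, pole, was called higher. The others were cdc45 (0.34), pold1 (0.25) and rpa1 (0.13). The catalytic subunit of polymerase epsilon, pole, had 7.43, 6.93 and 7.21 TPM in re_1h, against 3.25, 3.81 and 3.10 TPM in lc_12h (0.90 ± 0.06, limma adjusted p = 3.3e-15). Its samples did not overlap, and at re_2h it stood at 4.11, 3.84 and 3.56 TPM, above the lc_12h mean but not called. Among the uncalled mitosis genes ccnb1 had 35.6, 34.1 and 37.3 TPM in re_2h, with a difference of 0.46 ± 0.15 from lc_12h that was not called, and mki67 one of -0.06 ± 0.05. Of the other replication genes 16 of 46 were lower and 1 higher in re_2h than in lc_12h, against 6.55% and 14.1% of all genes. Among the lower ones slbp changed by -1.87 ± 0.07 and the clamp unloader atad5a by -1.05. Of the other G1/S genes e2f7 changed by -2.24 ± 0.11 and e2f8, its close relative, by -1.90. Of 50 other mitosis genes 3 were higher (cenpf, prc1a and aspm, by 0.76, 0.66 and 0.59) and 2 lower (plk4 by -0.81 and stil by -0.99).

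Between 2 h and 6 h at 28 °C the lists crossed back to the order they had in lc_12h. The S phase level, the mean of log2(TPM + 1) over the 26 genes relative to ctrl_96hpf, was -0.60 in re_2h, -0.20 in re_6h, 0.07 in re_12h and -0.08 in re_24h. The mitosis level over 20 genes was -0.14, -0.45, -0.16 and -0.34 at the same times. The S phase level minus the mitosis level was therefore -0.46 ± 0.02 in re_2h and 0.25 ± 0.05 in re_6h (SD, n = 3 each), and the ranges of the 3 samples, -0.48 to -0.44 and 0.19 to 0.30, are far apart. The difference then stayed positive, at 0.23 ± 0.04 in re_12h and 0.27 ± 0.07 in re_24h. Before rewarming it had been positive too, at 0.11 ± 0.04 in lc_12h, and it was already negative in re_1h (-0.17 ± 0.04). These levels are descriptions over chosen genes and carry no test.

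**Figure D3:**
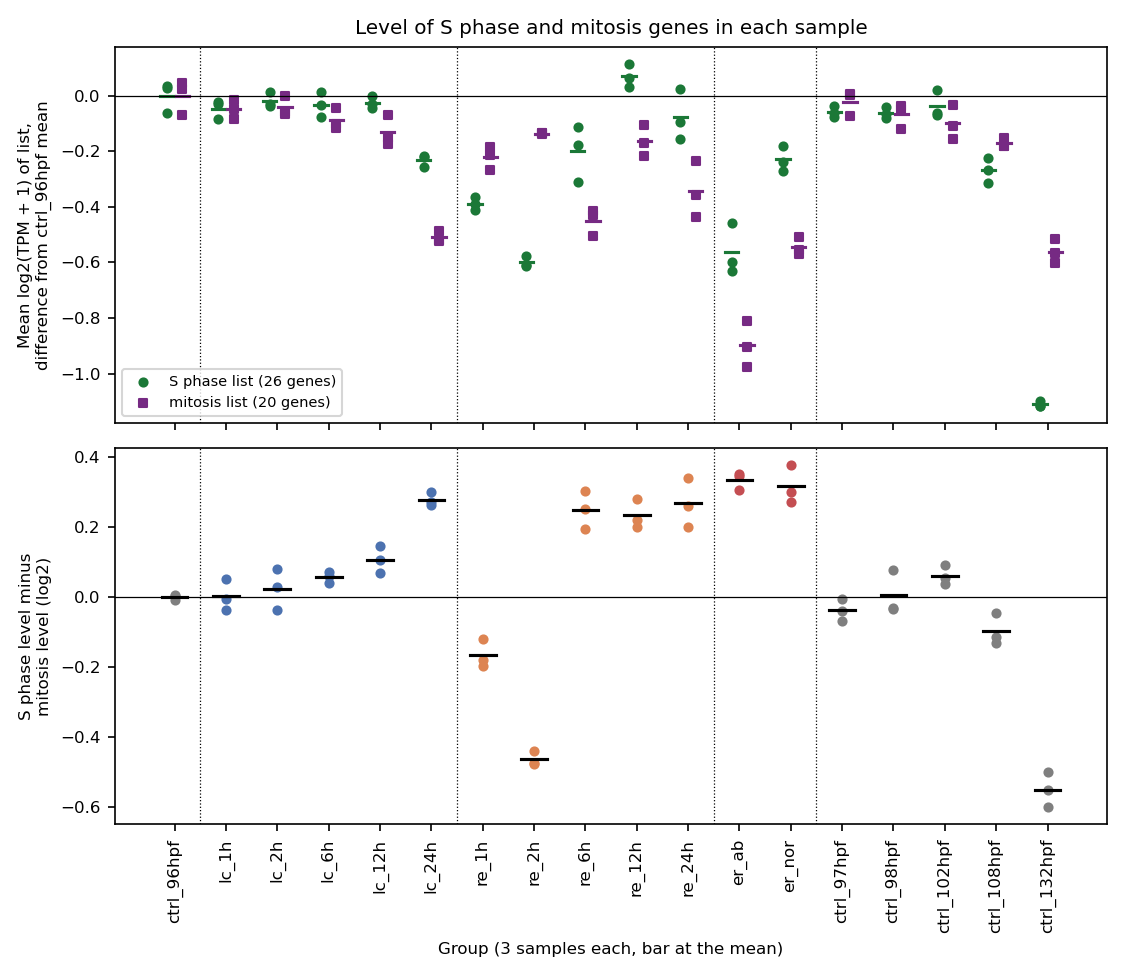
Upper panel: mean log2(TPM + 1) of the 26 S phase genes and of the 20 mitosis genes in each sample, as the difference from the ctrl_96hpf mean, for the 18 groups on the x axis with a bar at the mean of 3; lower panel: S phase level minus mitosis level. The difference is -0.46 in re_2h, 0.25 in re_6h and -0.55 in ctrl_132hpf, and the samples of these groups do not overlap with those of ctrl_96hpf.

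The step was also fitted gene by gene, in a comparison chosen after these levels had been seen. In re_6h 25 of 26 S phase genes lay above re_2h (median 0.42) and 1 of 20 mitosis genes did (median -0.30), while the median of all genes was 0.06. At an unadjusted limma p under 0.05 there were 21 of 26 S phase and 15 of 20 mitosis genes, against 40.5% of all genes. In limma 3 members were called higher and 0 lower, against 5.56% and 2.77% of all genes. The 3 are mcm2 with 33.1, 31.9 and 24.7 TPM in re_6h and 17.3, 18.6 and 16.7 TPM in re_2h (0.73 ± 0.07, adjusted p = 4.9e-11), tyms with 20.8, 20.2 and 18.3 TPM in re_6h and 11.7, 10.5 and 11.5 TPM in re_2h (0.76 ± 0.08, 2.9e-10), and prim1 (0.59 ± 0.11, 8.3e-05). Both mcm2 and tyms were higher in every re_6h sample than in every re_2h sample. The call of prim1 was lost after rescaling (0.51) and in 4 fits with 1 sample of re_2h or re_6h left out (0.49 to 0.55). The count was 2 without re_6h replicate 1, and after rescaling 4 members were lower, against 3.79% of all genes. The uncalled differences of the mitosis genes included ccnb1 at -0.54 ± 0.15, with 21.9, 22.1 and 29.2 TPM in re_6h and 35.6, 34.1 and 37.3 TPM in re_2h, and cdk1 at -0.45 ± 0.10. Of the other replication genes 7 of 46 were higher and 0 lower, and of the other mitosis genes 0 of 50 higher and 3 lower.

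In re_12h both lists lay above re_6h. All 26 S phase genes (median 0.24) and all 20 mitosis genes (median 0.25) were above 0, and 2 members were called higher, with 0.914% of all genes higher and 1.24% lower. Ribonucleotide reductase rrm1 had 48.6, 46.3 and 49.3 TPM in re_12h and 32.5, 30.6 and 27.7 TPM in re_6h (0.65 ± 0.05, limma adjusted p = 1.7e-12). The condensin subunit smc2 (0.72 ± 0.17, 2.9e-03) was the other, and its call was lost with the gene IDs summed (0.37).

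Against lc_12h, 5 members were lower and 0 higher in re_6h, where 5.24% of all genes were lower and 16.6% higher. In re_12h 4 were lower and 2 higher, against 5.50% and 15.8% of all genes, and in re_24h 5 lower and 1 higher, against 7.15% and 13.0%. The shares lie near those of all genes for lower calls and under them for higher calls. Cdc6, cdt1, ccne2 and rrm2 were lower at all 3 times, although rrm2 in re_12h was at -0.57 without re_12h replicate 2, with changes at re_24h of -2.31 ± 0.15, -1.68 ± 0.08, -1.04 ± 0.12 and -0.86 ± 0.12. The mitosis genes called were smc2 in re_6h (-0.80 ± 0.17) and the mitotic kinase plk1 in re_24h (-0.72 ± 0.11, limma adjusted p = 1.3e-06). Higher in re_12h were mcm6 (0.73 ± 0.07) and mcm2 (0.64 ± 0.07), and in re_24h mcm6 (0.65 ± 0.07), all of which missed the limit after rescaling, when 13 members were lower in re_6h with 9.03% of all genes. Without re_24h replicate 3 the count of lower members in re_24h was 8.

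Set against lc_24h larvae of the same age, re_12h larvae had 15 members higher and 3 lower, with 28.2% and 7.86% of all genes, and 6 higher and 6 lower after rescaling, with 15.1% and 14.8%. Mcm2 had 32.7, 34.8 and 35.4 TPM in re_12h and 11.9, 14.0 and 12.7 TPM in lc_24h (1.35 ± 0.07, limma adjusted p = 4.6e-20), and cdk1 had 38.3, 28.3 and 35.6 TPM in re_12h and 12.7, 14.8 and 12.2 TPM in lc_24h (1.295 ± 0.10, limma adjusted p = 3.0e-14). Neither gene overlapped between the groups. Mcm6 (1.12), mcm7 (1.00), top2a (0.67) and aurkb (0.65) were higher too, of which top2a (0.34) and aurkb (0.33) missed the limit after rescaling, and cdc6 (-2.02), cdt1 (-1.47) and ccne2 (-1.01) were lower.

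In untreated larvae the members changed little up to 108 hpf and were lower at 132 hpf, the S phase genes more than the mitosis genes. No member was called in limma at 97, 98, 102 or 108 hpf against ctrl_96hpf, where 0.173%, 0.134%, 0.993% and 1.87% of all genes were higher and 0.0670%, 0.0709%, 0.374% and 0.626% lower. At an unadjusted p under 0.05 there were 9, 10, 10 and 27 of 50 members at these ages, against 11.0%, 14.4%, 20.7% and 20.9% of all genes. In ctrl_108hpf 0 of 26 S phase genes lay above 0, with a median of -0.27, and 1 member was called lower when ctrl_96hpf replicate 2 was left out. In ctrl_132hpf 36 of 50 members (72%) were called lower and 0 higher, against 8.28% and 4.13% of all genes. The 36 comprise 24 of 26 S phase genes (median -1.06), 10 of 20 mitosis genes (median -0.58) and 2 of 4 G1/S genes, while the median of all genes was -0.09. All 50 members lay below 0. After rescaling 30 members were lower, with 5.86% of all genes, and the calls lost were those of rfc3 and of 5 mitosis genes (ccna2, ccnb1, aurka, bub1 and mki67).

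The helicase subunit mcm5 had 11.7, 11.7 and 12.4 TPM in ctrl_132hpf, against 37.8, 37.4 and 35.5 TPM in ctrl_96hpf (-1.55 ± 0.04, limma adjusted p = 5.4e-27). The clamp pcna had 78.1, 85.2 and 94.1 TPM in ctrl_132hpf, against 237, 224 and 215 TPM in ctrl_96hpf (-1.39 ± 0.05, 6.0e-23), and rrm2 had 30.4, 35.0 and 31.8 TPM in ctrl_132hpf, against 81.7, 72.8 and 63.6 TPM in ctrl_96hpf (-1.14 ± 0.12, 3.5e-10). None of the 3 overlapped between the ages. By role, 8 of 9 helicase genes (median -1.49), 6 of 7 clamp, loader and Rpa genes, all 4 polymerase and primase genes, all 3 nucleotide genes and all 3 licensing genes were lower. The share of all genes called lower was 8.28%. The S phase genes not called were mcm7 (-0.57), with 98.2, 108 and 105 TPM in ctrl_132hpf and 154, 156 and 154 TPM in ctrl_96hpf, and the clamp loader subunit rfc5 (-0.49). At the G1/S step cdk2 (-1.12 ± 0.08) and ccne2 (-0.74 ± 0.12) were lower and ccnd1 was not called (-0.25 ± 0.05).

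Of the mitosis genes aurkb (-0.76 ± 0.07), the spindle checkpoint protein mad2l1 (-0.94 ± 0.10), mki67 (-0.60 ± 0.05) and ccnb1 (-0.66 ± 0.15) were lower in ctrl_132hpf, ccnb1 with 18.9, 25.01 and 22.7 TPM, against 35.5, 36.3 and 34.7 TPM in ctrl_96hpf. After rescaling ccnb1 was at -0.56 and mki67 at -0.49, both under the limit, and so were ccnb1 without ctrl_132hpf replicate 1 (-0.55) and mki67 without ctrl_96hpf replicate 2 (-0.57). Cdk1 had 21.7, 24.3 and 28.7 TPM in ctrl_132hpf, against 39.2, 31.7 and 35.4 TPM in ctrl_96hpf, without overlap but not called (-0.50 ± 0.10). The S phase level minus the mitosis level was -0.55 ± 0.05 in ctrl_132hpf (range -0.60 to -0.50, n = 3) and -0.10 ± 0.05 in ctrl_108hpf. Of 46 other replication genes 35 were lower, with dut (-1.38 ± 0.07), chaf1b (-1.36) and the maintenance DNA methyltransferase dnmt1 (-0.86) among them, and of 50 other mitosis genes 15 were lower, with mybl2b (-1.03), kif15 (-0.81) and bub3 (-0.71). Of all genes tested 8.28% were lower in this comparison. The summed level of the 17 neural progenitor markers was 911 to 935 TPM in ctrl_132hpf and 1580 to 1628 TPM in ctrl_96hpf, with none at 0, and that of 7 exocrine pancreas markers was 15163 to 19012 TPM in ctrl_132hpf and 4189 to 5218 TPM in ctrl_96hpf. Of the 17 progenitor markers 1 was called lower. The part of such shifts in cell makeup in these results was not tested.

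**Figure D4:**
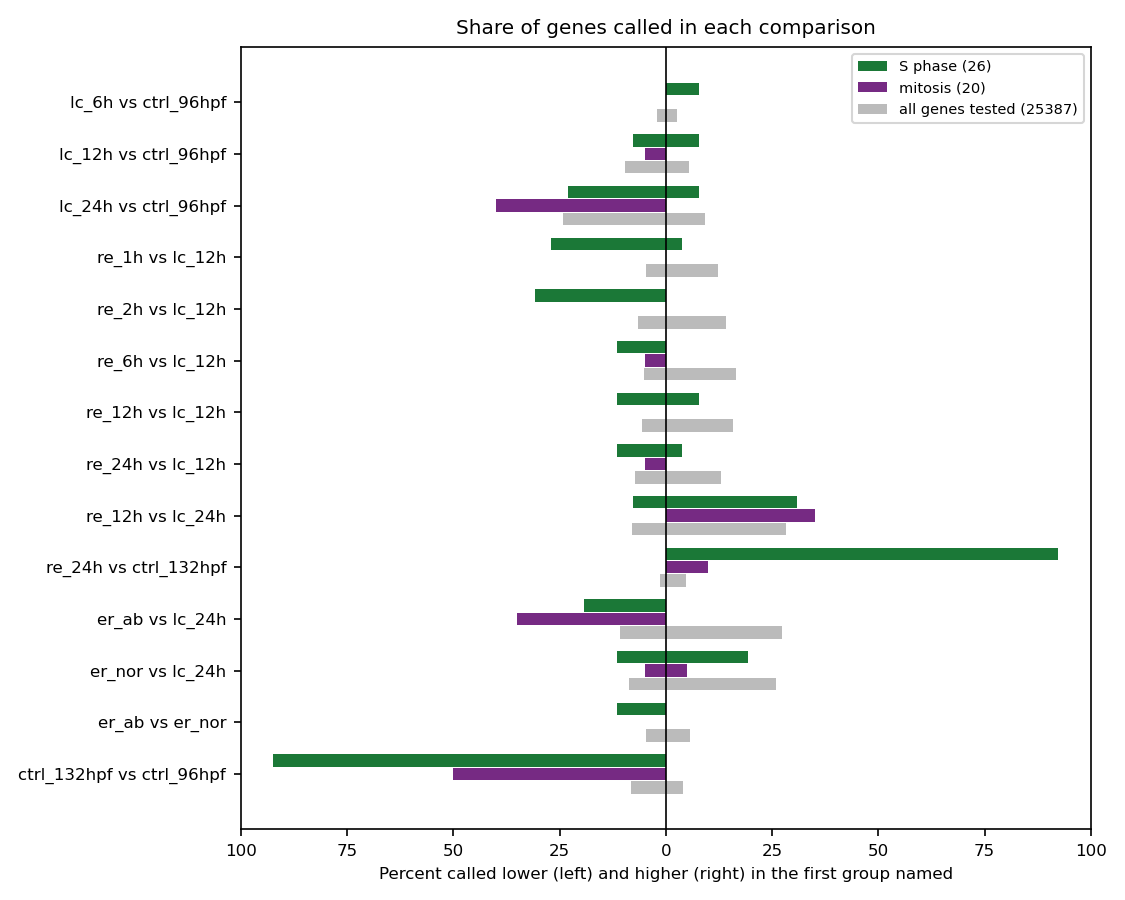
Percent of genes called lower (left of 0) and higher (right of 0) in the first group named, for the S phase members, the mitosis members and all 25387 genes tested, one row of bars for each comparison. In ctrl_132hpf against ctrl_96hpf 92.3% of S phase and 50% of mitosis members are lower, with 8.28% of all genes, and in re_24h against ctrl_132hpf 92.3% of S phase and 10.0% of mitosis members are higher, with 4.75% of all genes.

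Larvae that had been cold for 12 h and then warm for 24 h differed from untreated larvae of the same age in the S phase genes above all. In re_24h 28 of 50 members (56.0%) were called higher than in ctrl_132hpf and 0 lower, against 4.75% and 1.34% of all genes. They are 24 of 26 S phase genes (92.3%, median 0.98), 2 of 4 G1/S genes and 2 of 20 mitosis genes (10.0%, median 0.22), while the median of all genes was 0.05. The 26 S phase genes all lay above 0, and 17 of the 20 mitosis genes did. After rescaling 26 members were higher, with 4.01% of all genes, and between 27 and 28 were higher with any 1 sample left out.

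Mcm5 had 33.5, 32.3 and 36.0 TPM in re_24h, against 11.7, 11.7 and 12.4 TPM in ctrl_132hpf (1.43 ± 0.04, limma adjusted p = 3.1e-25). Pcna had 205, 200.4 and 231 TPM in re_24h, against 78.1, 85.2 and 94.1 TPM in ctrl_132hpf (1.298 ± 0.05, 1.5e-21), and tyms had 24.1, 23.6 and 28.2 TPM in re_24h, against 7.59, 8.33 and 7.44 TPM in ctrl_132hpf (1.58 ± 0.08, 1.7e-19). For each of these genes the lowest re_24h sample was above the highest ctrl_132hpf sample by a wide margin. The helicase gene mcm4 rose by 1.47 ± 0.06. By role, 8 of 9 helicase genes (median 1.41), all 7 clamp, loader and Rpa genes (median 0.89), all 4 polymerase and primase genes (0.95), all 3 nucleotide genes (0.82) and 2 of 3 licensing genes were higher. The share of all genes called higher was 4.75%.

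The S phase genes not called were cdt1 (0.58), under the limit by a small margin, and mcm7 (0.37), with mcm7 at 139, 123 and 140.1 TPM in re_24h and 98.2, 108 and 105 TPM in ctrl_132hpf. The origin recognition subunit orc1 was called at 1.199 ± 0.45 (limma adjusted p = 4.8e-02) on samples that scatter widely without overlap, at 5.80, 3.16 and 2.44 TPM in re_24h and 1.87, 0.824 and 0.534 TPM in ctrl_132hpf. It lost its call after rescaling and in 4 fits with 1 sample left out. At the G1/S step cdk2 had 14.0, 14.2 and 12.9 TPM in re_24h, against 6.76, 5.29 and 7.12 TPM in ctrl_132hpf (1.00 ± 0.08, 7.7e-13), ccne2 rose by 0.66 ± 0.12, and ccnd1 was not called (0.06 ± 0.05).

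Of the mitosis genes the condensin subunits smc2, with 12.4, 12.4 and 16.1 TPM in re_24h and 8.78, 6.25 and 8.06 TPM in ctrl_132hpf (0.75 ± 0.17, limma adjusted p = 6.0e-04), and smc4 (0.62 ± 0.10, 9.1e-06) were called. Summing the gene IDs of smc2 brought it under the limit (0.55), and smc4 was at 0.58 after rescaling and 0.51 without ctrl_132hpf replicate 1. The kinase and cyclin of mitotic entry were not called: cdk1 had 27.9, 28.6 and 33.7 TPM in re_24h and 21.7, 24.3 and 28.7 TPM in ctrl_132hpf (0.27 ± 0.10), and ccnb1 had 23.4, 28.0 and 26.5 TPM in re_24h and 18.9, 25.01 and 22.7 TPM in ctrl_132hpf (0.22 ± 0.15). The samples of both genes overlapped. Mki67 had 29.5, 31.4 and 35.4 TPM in re_24h and 25.4, 25.3 and 25.7 TPM in ctrl_132hpf (0.32 ± 0.05), without overlap but under the limit. The anaphase genes cdc20 (-0.30) and ube2c (-0.01) and the kinesin kif11 (-0.04) lay below 0.

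**Figure D5:**
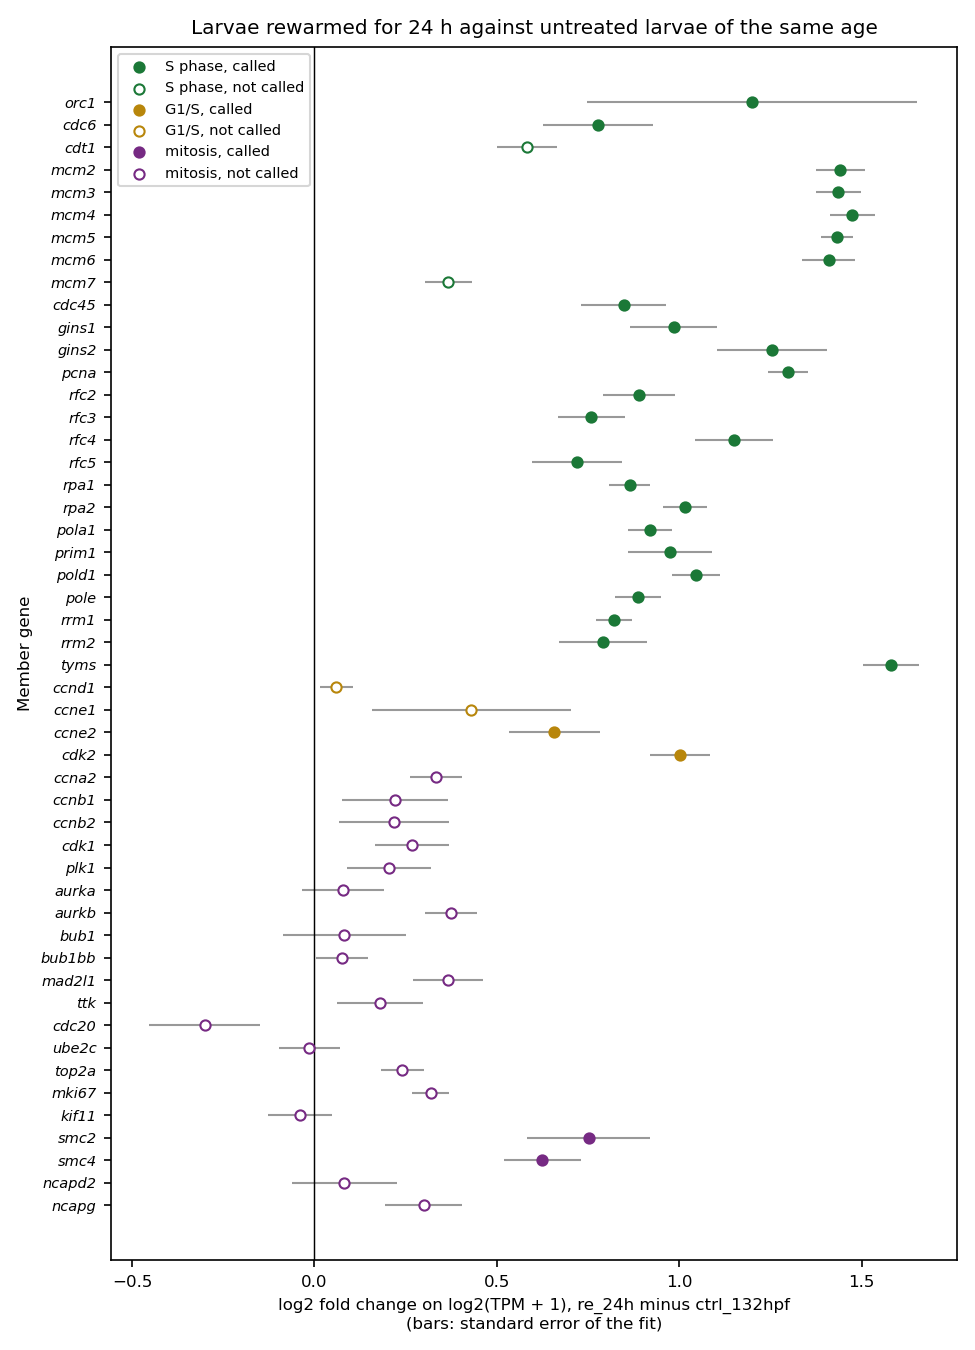
Log2 fold change on the log2(TPM + 1) scale of each of the 50 members (down the page) in re_24h minus ctrl_132hpf, with bars for the standard error of the fit and filled points for called genes. All 26 S phase genes lie right of 0 (0.37 to 1.58), 24 of them called, and the 20 mitosis genes lie between -0.30 and 0.75 with 2 called.

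Of the other replication genes 33 of 46 were higher in re_24h than in ctrl_132hpf and 0 lower, against 4.75% and 1.34% of all genes. Among the higher ones were dnmt1 (0.82 ± 0.05), uhrf1 (1.14) and chaf1b (1.21). Of 50 other mitosis genes 9 were higher and 0 lower, including mybl2b (0.92), kif15 (0.74) and ncapd3 (0.68), and of 19 other G1/S genes e2f1 (0.85), e2f8 (0.89) and e2f7 (0.60) were higher. The 17 neural progenitor markers summed to 1058 to 1113 TPM in re_24h and 911 to 935 TPM in ctrl_132hpf, with none at 0 and 0 of 17 called. The markers of exocrine pancreas summed to 12288 to 14816 TPM in re_24h and 15163 to 19012 TPM in ctrl_132hpf. The part of these differences in the result was not tested.

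Time at 28 °C differs in this comparison, since re_24h larvae had 24 h at 28 °C after 96 hpf and ctrl_132hpf larvae 36 h. No untreated group with 24 h at 28 °C after 96 hpf was analysed here. The part of these hours in the re_24h result was therefore not tested. The nearest untreated groups, ctrl_108hpf and ctrl_132hpf, had 12 h and 36 h, so neither is a match. In ctrl_108hpf no member was called lower than in ctrl_96hpf, but 0 of 26 S phase genes lay above 0 (median -0.27). In the comparison matched for hours at 28 °C, warming of the medium counted in, re_12h and ctrl_108hpf had 12 h each. No member was called in limma in re_12h against ctrl_108hpf, and 0.878% of all genes were higher and 0.366% lower. At an unadjusted p under 0.05, 25 of 50 members differed, against 17.2% of all genes. These were mostly S phase genes: 21 of 26 had such a p and all 26 lay above 0 (median 0.34), whereas 3 of 20 mitosis genes had one and 12 lay above 0 (median 0.01, and -0.01 after rescaling). Pcna had 249, 233 and 239 TPM in re_12h and 181, 189 and 188 TPM in ctrl_108hpf (0.37 ± 0.05), and mcm5 had 37.3, 35.6 and 39.8 TPM in re_12h and 27.6, 29.7 and 29.0 TPM in ctrl_108hpf (0.37 ± 0.04, adjusted p = 1.6e-07). Both were higher in all 3 re_12h samples, by less than 1.5-fold. The differences of ccnb1 (0.00 ± 0.15), mki67 (-0.00 ± 0.05) and cdk1 (-0.13 ± 0.10) were not called.

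For 25 members the same 24 h at 28 °C came with a different change after cold than without it. The difference between the change of re_24h against lc_12h and that of ctrl_132hpf against ctrl_108hpf was more positive after cold for 23 members and more negative for 2, against 20.1% and 5.72% of all genes. The 23 are 20 of 26 S phase genes (median 0.99), cdk2 (0.75) and the mitosis genes cdk1 (0.81 ± 0.14, limma adjusted p = 1.1e-05) and smc2 (0.63 ± 0.24, 2.9e-02). With its gene IDs summed smc2 was at 0.04. After rescaling the counts were 17 and 3, with 11.2% and 9.63% of all genes, and cdk2 (0.53), cdk1 (0.58) and smc2 (0.40) lost their calls, as did mcm7, gins1 and rfc2. The median over the mitosis genes was 0.18, and -0.05 after rescaling, and that over all genes was 0.23. Mcm5 differed by 1.41 ± 0.06 (9.3e-21), mcm2 by 1.77 ± 0.10 (4.6e-18) and mcm6 by 1.73 ± 0.10 (4.7e-17). The 2 negative ones were cdc6 (-1.80 ± 0.21, 5.4e-09) and cdt1 (-1.10 ± 0.12, 3.4e-10), both of which were high in lc_12h. Rrm2 (-0.18 ± 0.17), mki67 (0.36 ± 0.07), ccnb1 (0.39 ± 0.21) and ccnd1 (0.18 ± 0.06) were not called.

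Among the survivors of 24 h of cold, the abnormal larvae had lower levels of most members than the normal ones, but few differences passed the threshold. In er_ab 4 of 50 members (8%) were called lower than in er_nor and 0 higher, against 4.74% and 5.58% of all genes, so the count lies near that of all genes. At an unadjusted p under 0.05, 33 of 50 members differed, against 42.8% of all genes. The median was -0.36 for the S phase genes, -0.38 for the mitosis genes and -0.02 for all genes, and 5 of 50 members lay above 0. The count ran from 2 without er_ab replicate 1 to 8 without er_ab replicate 2.

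Rrm1 had 20.2, 22.0 and 21.6 TPM in er_ab, against 36.8, 37.8 and 36.6 TPM in er_nor (-0.77 ± 0.05, limma adjusted p = 4.5e-16). Pcna had 112, 131 and 122 TPM in er_ab, against 179, 188 and 186 TPM in er_nor (-0.60 ± 0.05, 7.7e-12), and prim1 had 9.10, 11.1 and 9.62 TPM in er_ab, against 16.8, 16.2 and 14.0 TPM in er_nor (-0.61 ± 0.11, 4.4e-05). The groups did not overlap in any of the 3 genes. Both pcna and prim1 lie at the limit: without er_ab replicate 1 pcna was at -0.54 and prim1 at -0.55, without er_nor replicate 2 they were at -0.58 each, without er_nor replicate 1 prim1 was at -0.56, and after rescaling pcna was at -0.58. Ccne1 was called at -0.88 ± 0.27 (1.0e-02), but is listed at 0 in 1 er_ab sample, with 1.08 and 0.888 TPM in the others and 1.99, 2.04 and 1.69 TPM in er_nor, and lost its call with the gene IDs summed (-0.40).

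No mitosis gene was called, although mki67 had 18.9, 19.6 and 18.3 TPM in er_ab and 28.4, 27.5 and 27.8 TPM in er_nor (-0.54 ± 0.05, limma adjusted p = 4.3e-11), without overlap and just under the 1.5-fold limit. Cdk1 had 20.6, 21.4 and 18.2 TPM in er_ab and 25.4, 28.3 and 28.4 TPM in er_nor (-0.43 ± 0.10). Differences of mcm5 (-0.34 ± 0.04), rrm2 (-0.39 ± 0.12), ccnb1 (-0.22 ± 0.15) and ccnd1 (-0.08 ± 0.05) were not called either. Of all genes tested 4.74% were lower and 5.58% higher in er_ab than in er_nor. Of the other lists, dut (-0.84 ± 0.07) and the flap endonuclease fen1 (-0.60 ± 0.08) were lower among 46 replication genes, cdca8 (-0.67), cenpk (-0.98) and pttg1 (-0.81) among 50 mitosis genes, and tfdp2 (-0.76) among 19 G1/S genes. Of 17 genes that restrain the cycle btg1 averaged 195 ± 8.53 TPM in er_ab and 98.8 ± 4.25 TPM in er_nor (0.97 ± 0.05), btg2 averaged 36.9 ± 7.53 TPM in er_ab and 16.0 ± 0.583 TPM in er_nor (1.14 ± 0.10), and cdkn2d was lower (-0.66). The 17 neural progenitor markers summed to 489 to 567 TPM in er_ab and 962 to 1002 TPM in er_nor, with none at 0. Of these 17 markers 3 were called lower, against 4.74% of all genes. The 5 epidermis markers summed to 3615 to 3740 TPM in er_ab and 5678 to 5918 TPM in er_nor. Sums of liver (5794 to 6346 TPM in er_ab and 8094 to 8274 TPM in er_nor), neuron, pancreas and blood markers were also lower without overlap. Those of muscle, lens and immune markers overlapped. The part of these marker differences in the results was not tested.

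Both survivor groups were also set against lc_24h, the end of the cold and the same 3 samples for both. The survivors were 144 hpf old and lc_24h larvae 120 hpf, and no untreated group of 144 hpf was analysed here. Lc_24h larvae were collected before it was known which would survive. The parts of age and of survival in these differences were not tested. In er_ab 13 members were lower and 0 higher, against 10.7% and 27.3% of all genes, and in er_nor 5 were lower and 6 higher, against 8.61% and 25.9%. After rescaling 25 members were lower in er_ab, with 17.9% of all genes, and in er_nor 8 were lower and 3 higher, with 15.3% and 16.2%. Cdc6 fell to 3.90, 4.15 and 3.24 TPM in er_ab and to 2.85, 4.60 and 3.52 TPM in er_nor, against 27.6, 28.6 and 26.4 TPM in lc_24h (-2.58 ± 0.15 and -2.63 ± 0.15, limma adjusted p = 3.4e-18 and 3.0e-18). Cdt1 (-1.72 and -1.75), ccne2 (-1.41 and -1.66), rrm2 (-1.60 and -1.21) and plk1 (-1.14 and -0.92) were lower in both groups.

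For plk1, the kinase of mitotic entry and exit, the samples were at 22.3, 25.2 and 17.98 TPM in er_ab and 52.9, 46.9 and 47.1 TPM in lc_24h. Also called in er_ab, and not in er_nor, were the clamp loader rfc3 (-0.73), the helicase factor cdc45 (-0.70), the checkpoint genes bub1bb (-0.59), bub1 (-0.87) and mad2l1 (-0.70), and the condensin subunits smc2 (-0.94) and ncapg (-0.63), although the difference between the groups was called for none of these. The ubiquitin-conjugating enzyme ube2c was called at -0.69. Of these genes rfc3, cdc45 and bub1bb had their highest mean of the 18 groups in lc_24h, the reference here. With gene IDs summed the calls of ube2c (-0.36) and ncapg (-0.25) were lost, and with 1 sample left out those of bub1bb in 4 fits (-0.58 to -0.57), of ncapg without lc_24h replicate 1 (-0.56) and of cdc45 without er_ab replicate 1 (-0.56). Called higher in er_nor were mcm2 (0.99), mcm6 (0.70), mcm7 (0.69), prim1 (0.85), pola1 (0.62) and cdk1 (1.00), of which mcm6 (0.44), mcm7 (0.41) and pola1 (0.38) missed the limit after rescaling and pola1 also without lc_24h replicate 2 (0.58). Mcm2 had 25.9, 26.8 and 26.6 TPM in er_nor and 17.5, 19.7 and 17.96 TPM in er_ab, against 11.9, 14.0 and 12.7 TPM in lc_24h. The er_ab samples lay between the other groups without overlap. The S phase level relative to ctrl_96hpf was -0.56 in er_ab and -0.23 in er_nor, the mitosis level -0.90 in er_ab and -0.54 in er_nor, and the difference between the lists 0.33 ± 0.03 in er_ab and 0.32 ± 0.05 in er_nor (SD, n = 3 each). At the end of the cold, in lc_24h, the S phase level was -0.23 and the mitosis level -0.51. The difference was thus already positive there, at 0.28 ± 0.02.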

How the data were processed

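The data are RNA-seq values of 54 whole-larva samples, 3 for each of 18 groups, assigned to groups by their labels. The deposited values are TPM per gene, which the authors obtained by quantifying reads on the Ensembl cDNA set with Salmon 0.13.1 (bias corrections on) and tximport. The authors called genes with DESeq2 on counts, which are not in the table used here, so a model for log values was used. Log2(TPM + 1) of 25387 genes, those that reached 1 TPM throughout any group, entered one limma 3.58.1 model (R 4.3.3) with a mean for each group, a mean-variance trend and 36 residual degrees of freedom. A fold change on this scale understates the change of low genes. The fit was tested on simulated data. Calls took a 1.5-fold change and a p of 0.05 or less after Benjamini-Hochberg adjustment. The members and the lists of other genes were chosen with earlier results of these data known, and list levels carry no test. The genes set to be named were mcm5, pcna, rrm2, ccnd1, ccnb1, cdk1 and mki67, and in each comparison up to 3 called members per list and direction with the smallest adjusted p. Added to these were members going against most of their list, and up to 3 called genes of each other list. Not all of these are named in every comparison above. Alternatives were a pseudocount of 0.1, no filter, libraries rescaled by median of ratios, same-age controls, a block for the replicate number, each sample left out, and, chosen after seeing the data, gene IDs summed per symbol and the comparisons between rewarming times. Promoter sequences were not used here.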

Additional observations from a re-analysis of the deposited data

Results flagged for a closer look

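The change over 24 h at 28 °C differed between larvae that had been cold for 12 h and untreated larvae for 25 members by the interaction in limma: 23 had a more positive change after cold and 2, cdc6 and cdt1, a more negative one, against 20.1% and 5.72% of all genes. After rescaling the counts were 17 and 3, against 11.2% and 9.63% of all genes. Both changes ran from 108 to 132 hpf. At 108 hpf lc_12h larvae had spent 0 h at 28 °C after 96 hpf and ctrl_108hpf larvae 12 h. The part of these earlier hours in the difference was not tested.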

How the results depend on the processing

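No called fold change of a named member changed sign under any alternative run, but several medians over lists did after the libraries were rescaled. The mitosis median did so in the interaction (0.18, then -0.05) and in re_12h against ctrl_108hpf (0.01, then -0.01). It also did in re_12h against lc_24h (0.32, then -0.02) and in lc_12h against ctrl_96hpf (-0.10, then 0.05). The S phase median did in er_nor against lc_24h (0.12, then -0.14) and in re_24h against lc_12h (0.08, then -0.02). The median of all members did in er_nor against lc_24h (0.08, then -0.18) and in re_12h against lc_12h (0.09, then -0.11). It also did in lc_12h against ctrl_96hpf (-0.13, then 0.03), and some other medians changed sign too. With a pseudocount of 0.1 the counts that moved were lc_6h lower 1, re_12h against lc_12h higher 4, ctrl_108hpf lower 1, re_12h against ctrl_108hpf higher 1, er_ab against lc_24h higher 1, and re_6h against re_2h higher 5 and lower 1, and the S phase level minus the mitosis level was -0.64 in ctrl_132hpf and -0.50 in re_2h. Libraries rescaled by median of ratios shifted the median of all genes by -0.28 to 0.23. They gave 5 higher and 0 lower in lc_12h, against 7.82% and 5.57% of all genes, and 9 lower in lc_24h, against 14%. In re_6h against lc_12h 13 were lower, against 9.03%. In re_12h and re_24h against lc_12h 0 were higher, against 8.91% and 10.2%. Re_12h against lc_24h gave 6 higher and 6 lower, against 15.1% and 14.8%. Er_ab against lc_24h gave 25 lower, against 17.9%, and er_nor against lc_24h 3 higher and 8 lower, against 16.2% and 15.3%. Re_6h against re_2h gave 4 lower, against 3.79%. Controls of the same age gave 0 lower in lc_12h. Gene IDs summed gave 1 higher in er_ab against lc_24h and 1 higher in re_12h against re_6h. With no filter no count moved by over 1.5 times. The replicate number as a block gave 27 higher members in re_24h against ctrl_132hpf in place of 28, orc1 having an adjusted p of 0.050, and changed no other call. In 0 of 27 comparisons did every pair of same-numbered samples deviate together, so the numbers are not taken as pairs.

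With each sample left out in turn the counts ran as follows. Cold: lc_2h 0 to 1 higher (1 without lc_2h replicate 1), lc_6h 2 to 3 higher and 0 to 1 lower, lc_12h 3 to 4 higher and 2 to 5 lower, lc_24h 13 to 16 lower. Rewarming against lc_12h: re_1h 8 to 9 lower, re_2h 0 to 1 higher and 8 to 10 lower, re_6h 5 to 6 lower, re_12h 2 to 3 higher and 3 to 4 lower, re_24h 1 to 2 higher and 5 to 8 lower. Untreated: ctrl_102hpf 0 to 1 lower, ctrl_108hpf 0 to 1 lower, ctrl_132hpf 34 to 36 lower. Other: re_24h against ctrl_132hpf 27 to 28 higher, re_12h against ctrl_108hpf 0 to 1 higher, the interaction 22 to 24 higher, re_12h against lc_24h 14 to 15 higher, er_ab against lc_24h 0 to 2 higher and 11 to 14 lower, er_nor against lc_24h 5 to 7 higher, er_ab against er_nor 2 to 8 lower, re_6h against re_2h 2 to 4 higher and 0 to 1 lower, re_12h against re_6h 2 to 3 higher. Of 1368 values of members called in the main fit 63 lost their call with 1 sample left out, and 40 of 203 did after rescaling. Calls gained are not counted in these values. The causes were not tested. Without read counts, differences of members at a few TPM, such as ccne1 and orc1, rest on the spread of 3 samples.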

Other observations

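Genes outside the 50 members that act beside them followed their own courses through cold and rewarming, given here as group means in TPM with no test beyond those above. The histone mRNA binding protein slbp averaged 29.4, 31.4, 47.6, 64.2 and 61.5 TPM after 1, 2, 6, 12 and 24 h at 10 °C, against 30.3 TPM in ctrl_96hpf. In the re larvae, rewarmed after 12 h at 10 °C, it averaged 31.5, 16.9, 25.7, 29.5 and 24.5 TPM after 1, 2, 6, 12 and 24 h of rewarming. It was thus lowest after 2 h at 28 °C, as was e2f7 among the treated groups, at 1.92 TPM in re_2h, against 12.8 TPM in lc_12h. The D cyclin partner cdk4 averaged 8.79 TPM in lc_24h, against 27.5 TPM in ctrl_96hpf. In the re larvae it averaged 15.1 TPM in re_1h, 13.9 TPM in re_2h and 24.2 TPM in re_6h. These larvae had 12 h of cold, so lc_24h is not their starting point. The centriole genes plk4 and stil averaged 8.92 and 3.09 TPM in lc_12h, 5.05 and 1.61 TPM in re_1h and 4.64 and 1.06 TPM in re_2h, against 5.15 and 1.09 TPM in ctrl_96hpf.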
